A study of Mus musculus with 19 samples.

Results

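The phagocyte NADPH oxidase and the proton channel that works beside it were followed through 6 genes, *Cybb*, *Cyba*, *Ncf1*, *Ncf4*, *Rac2* and *Hvcn1*, chosen by their symbols. All 6 were found once each among the 27299 genes of the deposited table. Bulk RNA-seq had been made from retinal microglia sorted from 6 lasered samples (CNV d3) and 6 unlasered control samples. CNV d3 samples were taken on day 3 after 6 laser burns per eye, which induce choroidal neovascularization (CNV), the growth of choroidal vessels towards the retina. Control samples had no laser treatment. All mice were 8 weeks old. The labels give C57BL/6J as the strain, whereas the methods name *Cx3cr1* GFP/+ mice, in which 1 copy of the receptor gene is replaced by GFP, on a C57BL/6J background. The gate took cells positive for CD11b and CX3CR1 and negative for Ly6C and Ly6G, with CD45 given as positive in the labels and as low in the methods. The labels do not say how many mice stand behind a sample, so p-values measure the spread between these samples.

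In phagocytes, the oxidase moves electrons from NADPH in the cytosol across a membrane to oxygen and so makes superoxide. *Cybb* encodes NOX2, the catalytic subunit, which is held in the membrane by the product of *Cyba* (p22phox) as flavocytochrome b558. The products of *Ncf1* (p47phox, the organizer) and *Ncf4* (p40phox, which binds a phosphoinositide of the phagosome) wait in the cytosol and join the membrane pair upon activation, together with a GTP-bound Rac protein, mainly *Rac2* in blood phagocytes. Electron flow leaves protons behind and charges the membrane, and the voltage-gated proton channel encoded by *Hvcn1* lets protons out, which keeps the oxidase running. Microglia express this machinery, and NOX2 is their best known source of superoxide.

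The samples held 10963178 to 22335233 recovered reads on genes in control and 23532260 to 29523018 in CNV d3. These ranges did not overlap, so depth followed the group. The same held for the number of genes with reads, 15076 to 17224 in control and 18276 to 19116 in CNV d3. All values below are normalized counts, that is, reads divided by the size factor of the sample, which corrects for depth. Each of the 6 genes had between 1221 and 19387 reads in every sample, so counting error was small beside the spread between samples. The microglia markers were abundant in all samples, with a sum of 889778 to 967230.0 normalized counts over 9 markers in control and of 497188 to 746154 in CNV d3, and 5 of the 9 fell (*P2ry12*, *Tmem119*, *Sall1*, *Siglech* and *Gpr34*). No reads of 4 Y-linked genes were found in the control samples, whereas CNV d3 replicates 4, 5 and 6 had 3529, 4284 and 3547 normalized counts in sum and replicates 1, 2 and 3 had under 1. The fold change of each of the 6 genes is therefore also given for CNV d3 replicates 1 to 3 alone. In bulk RNA, a change in the share of cells that express a gene and a change in its level per cell cannot be told apart.

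In CNV d3, the catalytic subunit gene *Cybb* and the GTPase gene *Rac2* were significantly increased and the proton channel gene *Hvcn1* was significantly decreased, and in each case the 2 groups did not overlap. Folds are 2 to the power of log2FC. *Cybb* rose 2.99-fold (95% confidence interval 2.10 to 4.26), *Rac2* rose 1.92-fold (1.66 to 2.22) and *Hvcn1* was 0.65-fold of control (0.55 to 0.76). *Cyba*, *Ncf1* and *Ncf4* did not pass the test. Over all genes, 8.29% were increased and 4.57% decreased at an adjusted p under 0.05 (limma, Benjamini-Hochberg over 27299 genes), and among the 3877 genes with a mean of at least 1000 normalized counts, to which all 6 belong, 22.0% were increased and 15.1% decreased. The 2 increased and 1 decreased of 6 genes are to be read beside these shares. All CNV d3 samples were above all control samples in 4.64% of the genes and below them in 2.83%.

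*Cybb* (ENSMUSG00000015340, GRCm38 chromosome X, 9435252 to 9487771, minus strand) had 2639.9, 1633, 4529, 2978, 1653 and 2425 normalized counts in control replicates 1 to 6. In CNV d3 replicates 1 to 6 it had 5422, 8028, 7316, 5495, 8545 and 11220.3. The highest control, replicate 3, was thus below the lowest CNV d3 sample, replicate 1, and the spread within each group was wide, with a coefficient of variation of 40.5% in control and 28.2% in CNV d3. The mean was 2643 ± 1069 in control and 7671 ± 2164 in CNV d3 (SD, n = 6 each). The change passed limma (log2FC = 1.58, SE 0.24, adjusted p = 0.00051) and the exact permutation test gave p = 0.0022, the smallest that 6 against 6 samples allow (two-sided). By the definition of a DEG in the study, an absolute log2FC above 1.5 with an adjusted p under 0.05, *Cybb* was the only one of the 6 genes to qualify, where 3.91% of all genes were increased DEG. It lay close to that border, and its log2FC was 1.46 without control replicate 2, without control replicate 5 or without CNV d3 replicate 6, and 1.76 without control replicate 3.

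*Cybb* is X-linked, and the samples with Y-linked reads were not evenly spread over the groups. In the 3 CNV d3 samples without Y-linked reads, *Cybb* was between 5422 and 8028 normalized counts, and in the 3 with them between 5495 and 11220.3. The comparison of the former 3 with the 6 control samples gave a log2FC of 1.46 (SE 0.33, adjusted p = 0.044 by limma), and a covariate for the Y-linked reads gave 1.45 (adjusted p = 0.012). Over 24 alternative fits (other tools, scalings, filters and covariates, and each sample left out), *Cybb* was called in each, with a log2FC between 1.45 and 1.76.

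*Cyba* (ENSMUSG00000006519, chromosome 8, 122424776 to 122432930, minus strand), the partner that stabilizes NOX2, did not rise. Its values in control replicates 1 to 6 were 14976, 15226, 19974, 15316, 13410 and 15198 normalized counts. In CNV d3 they were 13948, 16212, 13259, 11791, 12015 and 14782. The groups overlapped, and the mean of 13668 ± 1686 in CNV d3 stood beside 15683 ± 2221 in control (SD, n = 6; log2FC = −0.20, SE 0.10, adjusted p = 0.25 by limma). The interval of the fold change ran from 0.75 to 1.01, so an increase of more than 1.01-fold lay outside it. With CNV d3 replicates 1 to 3 alone, log2FC was −0.11 (adjusted p = 0.71 by limma).

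The promoters of this pair are shown because the products form 1 complex while the transcripts differed in response, and that of *Ncf1* because it is the remaining one of the 6 genes with an entry in the promoter table (3 of 6 matched, RefSeq, GRCm38.p6). Each sequence is the 250 bases before the annotated start, 5′ to 3′ on the strand of the gene. Both strands were searched for GAGGAA, the core of a PU.1 site, TTCNNNGAA, the core of a STAT site, and TATAAA, motifs which do not overlap in these windows. The capitals mark a match.
Cybb, chrX:9469325-9469574, minus strand: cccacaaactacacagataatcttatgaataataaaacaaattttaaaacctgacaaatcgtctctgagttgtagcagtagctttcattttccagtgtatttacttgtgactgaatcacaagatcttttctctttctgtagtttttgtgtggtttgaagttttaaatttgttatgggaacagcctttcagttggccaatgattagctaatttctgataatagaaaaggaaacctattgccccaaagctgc
Cyba, chr8:122432941-122433190, minus strand: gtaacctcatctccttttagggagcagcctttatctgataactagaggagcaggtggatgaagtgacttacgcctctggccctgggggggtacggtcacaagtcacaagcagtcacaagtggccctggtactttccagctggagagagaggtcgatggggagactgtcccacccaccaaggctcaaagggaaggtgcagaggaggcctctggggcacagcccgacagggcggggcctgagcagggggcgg
Ncf1, chr5:134229626-134229875, minus strand: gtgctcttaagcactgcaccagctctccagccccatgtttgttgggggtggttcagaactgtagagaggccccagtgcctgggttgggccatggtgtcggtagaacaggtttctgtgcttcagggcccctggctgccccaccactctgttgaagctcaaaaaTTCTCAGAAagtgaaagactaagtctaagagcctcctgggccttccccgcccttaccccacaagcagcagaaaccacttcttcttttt
None of the 3 motifs was found in the windows of *Cybb* and *Cyba*, and that of *Ncf1* held 1 match to TTCNNNGAA at positions −88 to −80 from the start. Among 32851 promoters, 23.3% held GAGGAA, 7.02% held TTCNNNGAA and 12.4% held TATAAA. The windows differed in base composition, with 34.0% G and C in *Cybb*, 60.0% in *Cyba* and 54.4% in *Ncf1*. In Gencode M21, the *Cybb* window lies within an intron of a longer *Cybb* transcript model and the *Cyba* window within an intron of *Gm20388* on the other strand, while no gene overlaps the *Ncf1* window. A match is a description of the letters and no evidence of binding.

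Neither of the cytosolic subunit genes *Ncf1* and *Ncf4* passed the test. *Ncf1* (ENSMUSG00000015950, chromosome 5, 134220053 to 134229625, minus strand) had 12913, 11355, 12474, 11894, 12085 and 13939 normalized counts in control replicates 1 to 6. In CNV d3 replicates 1 to 6 it had 11615, 13534, 14559, 12331, 11655 and 13163. The ranges of the groups overlapped, with a mean of 12443 ± 903 in control and 12810 ± 1158 in CNV d3 (SD, n = 6; log2FC = 0.04, SE 0.08, adjusted p = 0.73 by limma). The interval of its fold change was 0.92 to 1.15, and with CNV d3 replicates 1 to 3 alone log2FC was 0.09 (adjusted p = 0.68 by limma). In Gencode M21, 11.1% of its exon bases are shared with *Gtf2ird2* on the other strand.

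*Ncf4* (ENSMUSG00000071715, chromosome 15, 78244801 to 78262580, plus strand) was the lowest of the 6 genes by its mean over all 12 samples, with 2187, 1928, 2698, 2295, 2394 and 2524 normalized counts in control. In CNV d3 it had 2788, 2388, 2279.9, 2119.6, 1702 and 2285, so that CNV d3 held both the highest and the lowest sample. The mean was 2338 ± 268 in control and 2261 ± 354 in CNV d3 (SD, n = 6; log2FC = −0.06, SE 0.12, adjusted p = 0.77 by limma), with an interval of the fold change of 0.80 to 1.15. The sign of this difference was not stable, since log2FC was 0.02 without CNV d3 replicate 5 and 0.09 with CNV d3 replicates 1 to 3 alone.

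*Rac2* (ENSMUSG00000033220, chromosome 15, 78559167 to 78572783, minus strand) lies 297 kb from *Ncf4* on the same chromosome. Its values in control were 4409, 4253, 4462, 4282, 3728 and 3751 normalized counts. In CNV d3 they were 7374, 8994, 8973, 6651, 6972 and 9005, so that no CNV d3 sample reached down to the control range. The mean rose from 4148 ± 325 to 7995 ± 1115 (SD, n = 6; log2FC = 0.94, SE 0.10, adjusted p = 3.7e-05 by limma, exact permutation p = 0.0022). *Rac2* had the smallest adjusted p of the 6 genes, and with CNV d3 replicates 1 to 3 alone its log2FC was 1.02 (adjusted p = 0.00085 by limma).

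*Hvcn1* (ENSMUSG00000064267, chromosome 5, 122206804 to 122242297, plus strand) moved in the opposite direction. It had 4734, 4854, 5012, 4503, 4403 and 4927 normalized counts in control replicates 1 to 6, the tightest group of any of the 6 genes with a coefficient of variation of 5.10%. In CNV d3 it had 3278, 3296, 2452, 4045, 2724 and 2803, with a coefficient of variation of 18.3%. Every CNV d3 sample was below every control sample, and replicate 4 was the nearest to control. The mean fell from 4739 ± 242 to 3100 ± 568 (SD, n = 6; log2FC = −0.63, SE 0.11, adjusted p = 0.0015 by limma, exact permutation p = 0.0022), and with CNV d3 replicates 1 to 3 alone log2FC was −0.67 (adjusted p = 0.0088 by limma). In Gencode M21, 44.2% of the exon bases of *Hvcn1* are shared with exons of *Tctn1* on the other strand. Reads there are counted for neither gene by default unstranded counting, so the level of *Hvcn1* may be understated in both groups. *Tctn1* was low, with a mean of 152.7 ± 87.4 in control and 209.0 ± 49.0 in CNV d3 (SD, n = 6).

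**Figure D1:**
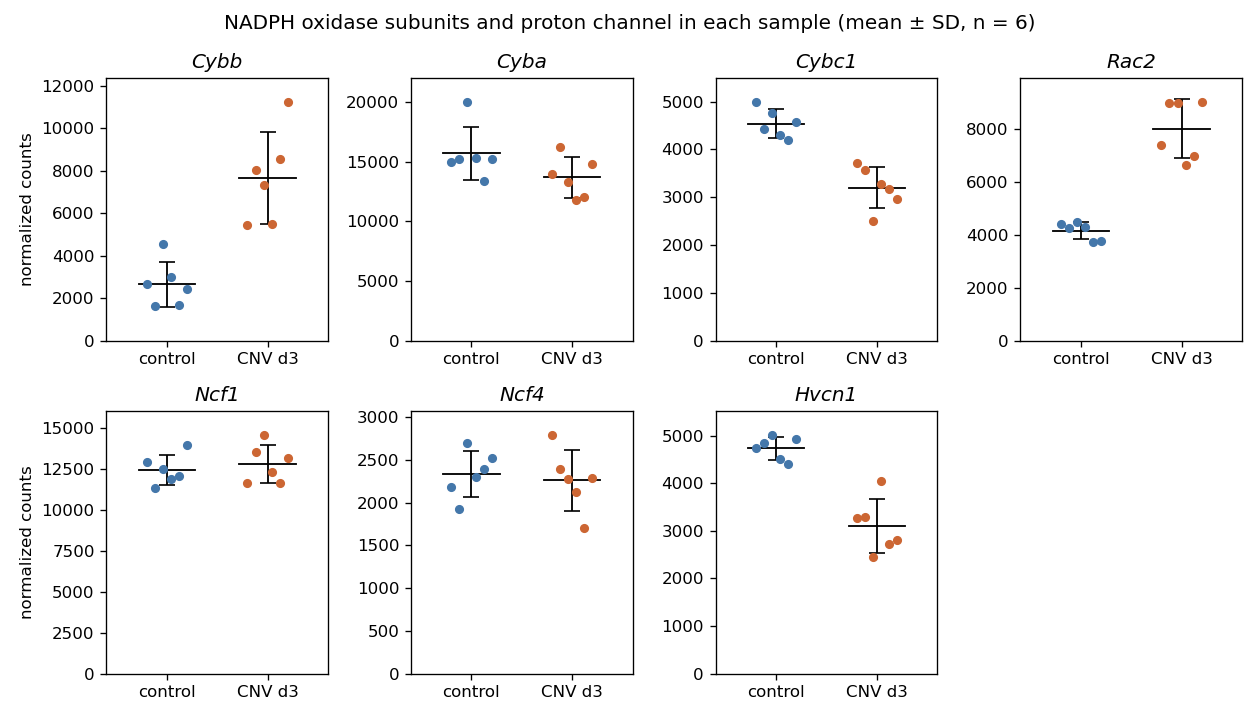
Normalized counts (linear axis from 0) of the 6 genes and of *Cybc1*, with 1 point per sample, the mean as a horizontal line and the SD as error bars, for 6 control and 6 CNV d3 samples. *Cybb* and *Rac2* in CNV d3 lie wholly above control and *Hvcn1* and *Cybc1* wholly below it, whereas the points of *Cyba*, *Ncf1* and *Ncf4* overlap.

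To set the levels of different genes side by side, normalized counts were divided by the length of the exons in Gencode M21. On this scale, *Cyba* was the most abundant in control, with a median of 14641 normalized counts per kb (range 12906 to 19224), followed by *Ncf1* with 3352, *Rac1* with 3138, *Rac2* with 1375, *Hvcn1* with 1346, *Ncf4* with 1161 and *Cybb* with 436 (281 to 780). The catalytic subunit thus ranked last among these 7 genes in control. Of the neighbours in this order, *Ncf1* and *Rac1*, *Rac2* and *Hvcn1*, and *Hvcn1* and *Ncf4* had overlapping ranges. In CNV d3, the medians per kb were 13093 for *Cyba*, 3677 for *Rac1*, 3480.0 for *Ncf1*, 2634 for *Rac2*, 1321 for *Cybb* (934 to 1932), 1130.0 for *Ncf4* and 853 for *Hvcn1*. There, *Rac1* and *Ncf1*, *Cybb* and *Ncf4*, and *Ncf4* and *Hvcn1* overlapped. *Cybb* moved from the seventh to the fifth place and *Hvcn1* from the fifth to the seventh. These places depend on the exon length that can be counted, and with only the bases not shared with another gene, *Hvcn1* had a median of 2410.4 per kb in control and 1529 in CNV d3, above *Rac2* in control and above *Cybb* in both groups, and *Rac1* had 6451 and 7559, above *Ncf1* in both.

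The balance between partners was then compared within each sample, which does not depend on the size factor. The ratio of *Cyba* to *Cybb* per kb had a median of 33.4 in control (24.7 to 52.1) and of 10.7 in CNV d3 (7.36 to 14.4). The groups did not overlap, and the log2 ratio differed by −1.78 (5.13 ± 0.41 in control and 3.35 ± 0.37 in CNV d3, SD, n = 6; exact permutation p = 0.0022, adjusted over 5 ratios 0.0036). Thus *Cyba* transcripts outnumbered *Cybb* transcripts per kb in all 12 samples, by less in CNV d3. The ratio of *Rac2* to *Rac1*, the ubiquitous Rac that can also serve the oxidase, had a median of 0.434 in control (0.355 to 0.539) and of 0.683 in CNV d3 (0.616 to 0.821), again without overlap (log2 difference 0.70, exact permutation p = 0.0022, adjusted p = 0.0036). This ratio used the whole exon length of *Rac1*, of which 51.4% is shared with *Daglb*, so its level may be overstated in both groups. The log2 difference between the groups does not depend on exon length. The ratio of *Hvcn1* to *Cybb* had a median of 3.12 in control (1.80 to 4.84) and of 0.608 in CNV d3 (0.407 to 1.20). Its mean log2 ratio differed by −2.21, which is a ratio 4.63-fold lower in CNV d3 (exact permutation p = 0.0022, adjusted p = 0.0036). This separation was fixed beforehand, since every CNV d3 sample was below every control sample in *Hvcn1* and above it in *Cybb*. The p-value of this ratio therefore adds nothing to the tests of the single genes. *Hvcn1* exceeded *Cybb* per kb in all control samples and in CNV d3 only in replicate 4, with the whole exon length of both genes.

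The log2 ratio of *Ncf4* to *Ncf1* was −1.56 ± 0.14 in control and −1.65 ± 0.25 in CNV d3 with overlapping groups (SD, n = 6; exact permutation p = 0.43, adjusted p = 0.43). This ratio passed the threshold without CNV d3 replicate 1 (difference −0.19, adjusted p = 0.046, exact permutation test). With CNV d3 replicates 1 to 3 alone, the differences were −1.57 for *Cyba* to *Cybb*, 0.71 for *Rac2* to *Rac1* and −2.13 for *Hvcn1* to *Cybb* (adjusted p = 0.020 each, exact permutation test). Before adjustment, each was at the smallest p that 3 against 6 samples allow, so the equal values do not measure the strength of the differences.

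**Figure D2:**
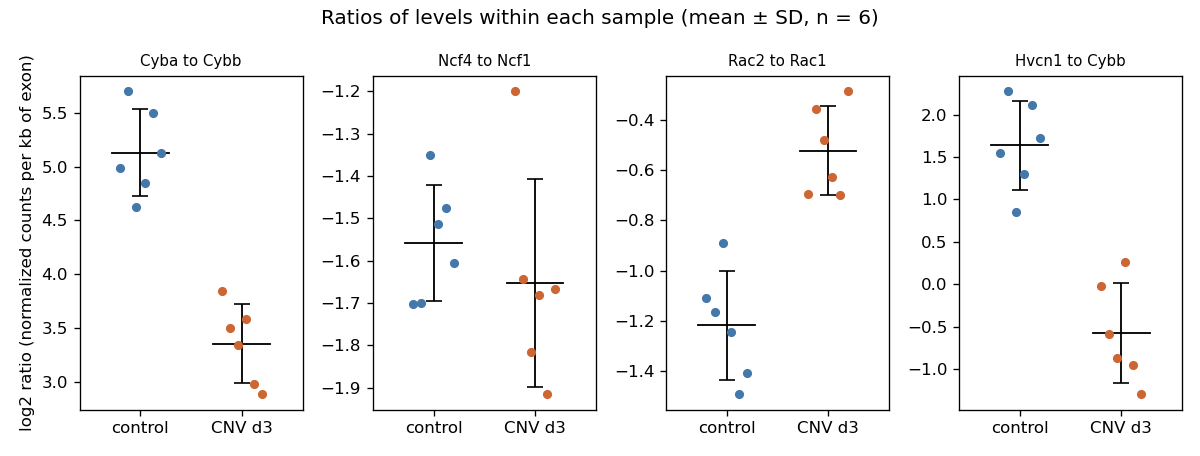
Log2 ratios of levels per kb of exon within each sample for 4 pairs of genes, with 1 point per sample, the mean as a horizontal line and the SD as error bars, for 6 control and 6 CNV d3 samples (each panel has its own axis). The ratios of *Cyba* to *Cybb*, *Rac2* to *Rac1* and *Hvcn1* to *Cybb* separate the groups, and that of *Ncf4* to *Ncf1* overlaps.

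The sorted cells could hold monocyte-derived cells, which also express *Cybb* and *Rac2*, so marker lists of other cells were set beside these results. Of 10 monocyte markers, 4 rose (*Ccr2*, *Plac8*, *Ms4a4c* and *Ly6c2*), and the sum of the list was 401 to 1343 normalized counts in control and 1449 to 5087 in CNV d3. *Ly6c2*, against whose product the gate was set, was at 0 in all control samples and had a mean of 12.9 in CNV d3. The control sample with the highest *Cybb*, replicate 3, had the highest monocyte sum in control (1343), and CNV d3 replicates 1 and 4, with the lowest *Cybb* of their group, had the lowest monocyte sums of their group (1449 and 1703). The order was not strict, since CNV d3 replicate 3 had the highest monocyte sum (5087) and *Cybb* at 7316. *Hvcn1* was highest among CNV d3 samples in replicate 4 and lowest in replicate 3, and the microglia sum was 708829 and 497188 there, but the highest microglia sum of the group (746154) was in replicate 1, where *Hvcn1* was 3278. Dendritic cell markers rose in 4 of 6 (*Flt3*, *Xcr1*, *Cd209a* and *Ccr7*), with a sum of 5.63 to 476 in control and 198 to 2092 in CNV d3. Control replicate 3 had the lowest dendritic cell sum of the control samples (5.63), and CNV d3 replicates 4 and 1 had the lowest of their group (198 and 745). All 5 proliferation genes rose (*Mki67*, *Top2a*, *Ccnb1*, *Cdk1* and *Birc5*), from a sum of 88.3 to 878 in control to 5874 to 14958 in CNV d3. Like *Cybb*, the proliferation sum in CNV d3 was lowest in replicates 1 and 4 (5874 and 7729) and highest in replicate 6 (14958). Among control samples it was highest in replicate 1 (878), with 547 in replicate 3. Border macrophage markers rose in 2 of 6 (*Cbr2* and *Folr2*, both low), with a sum of 35.7 to 1734 in control, highest in replicate 3, and 187 to 506 in CNV d3. The median of that sum was 370 in control and 285 in CNV d3. *Mrc1*, the most abundant of the list, went the other way, from a mean of 350 to 113 (log2FC = −1.44). It did not pass limma (adjusted p = 0.23) but passed DESeq2 on recovered reads as decreased (adjusted p = 0.041). With edgeR on recovered reads, *Cbr2*, *Folr2* and *Xcr1* did not pass (adjusted p = 0.25, 0.17 and 0.12). With DESeq2, *Cbr2* did not pass (adjusted p = 0.24), while *Folr2* and *Xcr1* did (0.047 and 0.036). The part of these cells in the changes of *Cybb*, *Rac2* and *Hvcn1* was not tested.

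Neutrophils carry much of this oxidase, and 7 of 9 neutrophil markers in the table (*S100a9*, *Mpo*, *Camp*, *Ltf*, *Ngp*, *Cxcr2* and *Mmp8*) stayed under 10 normalized counts in all 12 samples. *S100a8* had a mean of 6.06 in control and 0.503 in CNV d3, and *Csf3r*, which made up nearly all of the sum of that list, had 10221 ± 910 in control and 8601 in the mean of CNV d3 and did not pass the test. T and NK cell markers summed to at most 27.3. None of the 3 B cell markers in the table passed the test, and their sum of 10145 to 14925 over both groups came mainly from *Ighm*. Photoreceptor markers (sum 596 to 5954 in control, 494 to 11221 in CNV d3) passed limma in 0 of 5. *Sag*, with a mean of 180 in control and 815 in CNV d3, passed as increased with edgeR and DESeq2 on recovered reads (adjusted p = 0.020 and 0.0025). Of 4 Mueller glia markers 1, *Slc1a3*, fell (sum 6803 to 9773 in control, 5121 to 7513 in CNV d3). That sum came mainly from *Glul* (mean 5723 in control, 4734 in CNV d3) and *Slc1a3* (2117 and 1358). *Rlbp1* (54.6 and 85.1) and *Aqp4* (17.3 and 22.8) were low and did not pass. The share of reads on mitochondrial genes was 0.318% to 0.459% in control and 0.451% to 0.739% in CNV d3.

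**Figure D3:**
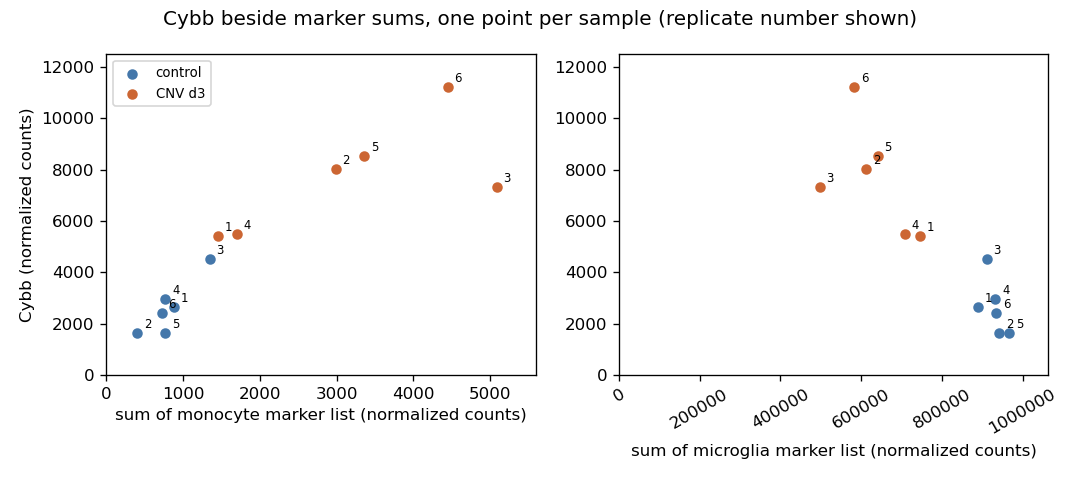
*Cybb* (normalized counts) against the sum of the monocyte list (left) and of the microglia list (right), in normalized counts, with 1 point per sample and its replicate number, for 6 control and 6 CNV d3 samples. CNV d3 samples lie at higher monocyte sums (1449 to 5087) and lower microglia sums (497188 to 746154) than control samples, and control replicate 3 lies nearest to CNV d3 replicates 1 and 4 on the left.

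Of the other genes for the assembly of the oxidase, 9 of 14 listed genes were in the table, and 3 passed the test as increased (33.3%, beside 8.29% of all genes and 22.0% of those with a mean of at least 1000) and none as decreased (median log2FC 0.42, beside 0.15 over all genes). *Rac1* rose slightly, from 13988 ± 1119 to 16539 ± 1117 (SD, n = 6; log2FC = 0.24, adjusted p = 0.038 by limma), and was called in 14 of 24 alternative fits. Here 51.4% of its exon bases are shared with *Daglb* on the other strand. *Sh3pxd2b*, which encodes a relative of the organizer found at podosomes, rose from 193 ± 106 to 479.8 in the mean (log2FC = 1.56, adjusted p = 0.017) and was called in 16 of 24. *Nox1*, the catalytic subunit of another oxidase, was at 0 in all control samples and at a mean of 1.35 normalized counts in CNV d3, which is below the worth of 3 reads, so no fold is given although it passed limma (adjusted p = 0.022). *Rap1a*, a GTPase that copurifies with flavocytochrome b558, had a log2FC of −0.08 (adjusted p = 0.69).

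The genes for maturation of the membrane pair did not move together. *Cybc1*, which encodes the endoplasmic reticulum chaperone needed for a stable NOX2 and p22phox pair, fell while *Cybb* rose. It had 4191 to 4986 normalized counts in control and 2502 to 3720 in CNV d3, without overlap (4539 ± 295 and 3199 in the mean, log2FC = −0.51, SE 0.10, adjusted p = 0.0030 by limma). The call of *Cybc1* was lost with CNV d3 replicates 1 to 3 alone (adjusted p = 0.067 by limma). *Nrros*, a negative regulator that promotes the degradation of NOX2, had 7894 ± 469 in control and a mean of 6589 in CNV d3 and did not pass (log2FC = −0.27, adjusted p = 0.088). *Hsp90aa1*, a chaperone, rose (log2FC = 0.57, adjusted p = 0.014), and the call was lost in 3 of 24 alternative fits, that with CNV d3 replicates 1 to 3 alone among them, while the more abundant *Hsp90ab1* did not pass (log2FC = 0.17, adjusted p = 0.18).

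Upstream of the oxidase, 8 of 18 genes rose (44.4%, beside 8.29% of all genes and 22.0% of those with a mean of at least 1000) and 2 fell (11.1%, beside 4.57% and 15.1%), with a median log2FC of 0.27. The kinases that phosphorylate the organizer differed among themselves. *Prkcb*, the beta isoform of protein kinase C, rose from 2623 ± 301 to 4724 in the mean without overlap of the groups (log2FC = 0.85, adjusted p = 0.00018 by limma), and *Prkca*, the alpha isoform, fell from 703.7 ± 219 to 253 (log2FC = −1.47, adjusted p = 0.0020, and 0.055 with CNV d3 replicates 1 to 3 alone). *Prkcd*, the delta isoform and the most abundant of these, had a log2FC of −0.04 (adjusted p = 0.70). Among the exchange factors that load Rac with GTP, *Vav2* rose from 1829 ± 375 to 3787 (log2FC = 1.07, adjusted p = 0.00021), and *Vav1*, the haematopoietic form, rose as well (log2FC = 0.24, adjusted p = 0.024). The call of *Vav1* was made in 20 of 24 alternative fits and lost without a variance trend, with the replicate block, with the Y-linked covariate and with CNV d3 replicates 1 to 3 alone (adjusted p up to 0.26).

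Of the phosphoinositide 3-kinases, *Pik3cg* fell without overlap of the groups (12196 ± 1418 to 8309 in the mean, log2FC = −0.56, adjusted p = 0.0022 by limma), and *Pik3cd* rose (log2FC = 0.31, adjusted p = 0.042). The inhibitors that keep Rac in the cytosol, *Arhgdia* (log2FC = 0.38, adjusted p = 0.0040) and *Arhgdib* (log2FC = 0.32, adjusted p = 0.035), rose as well. *Syk*, a kinase downstream of integrins and ITAM receptors, rose (log2FC = 0.29, adjusted p = 0.047). *Itgam*, which encodes the CD11b by which the cells were sorted, rose from 6403 ± 557 to 10544 (log2FC = 0.72, adjusted p = 9.5e-05), although 68.7% of its exon bases are shared with *Gm49368* on the same strand. *Itgb2*, its partner and the most abundant gene of the list, did not pass (log2FC = 0.08, adjusted p = 0.45). *Pik3cd*, *Arhgdib* and *Syk* were each called in 12 of 24 alternative fits.

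The supply of NADPH comes largely from the pentose phosphate pathway. Of 9 genes, 1 rose, *Taldo1*, which encodes transaldolase (5041 ± 669 to 7746 in the mean, log2FC = 0.62, adjusted p = 0.0015 by limma), and none fell (11.1% increased, beside 8.29% of all genes and 22.0% of those with a mean of at least 1000), with a median log2FC of 0.34. *G6pdx*, the entry enzyme, had a log2FC of 0.09 (adjusted p = 0.69), and *Tkt*, the second most abundant gene of the list, had 0.32 (adjusted p = 0.084). Of 6 genes that remove superoxide and peroxide, 2 rose (33.3%, beside the same 8.29% and 22.0%) and none fell. *Gpx1*, a glutathione peroxidase, rose from 11624 ± 1297 to 20419 without overlap of the groups (log2FC = 0.80, adjusted p = 0.00039), and *Prdx1*, a peroxiredoxin, rose from 6527 ± 1054 to 10179 (log2FC = 0.63, adjusted p = 0.010, called in 22 of 24). The call of *Prdx1* was lost with the Y-linked covariate and with CNV d3 replicates 1 to 3 alone (adjusted p up to 0.087 by limma). *Sod2* and *Cat* did not pass (log2FC = 0.20 and 0.26).

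Charge and pH transport beside *Hvcn1* was represented by 6 genes, of which 1 fell (16.7%, beside 4.57% of all genes and 15.1% of those with a mean of at least 1000) and none rose (median log2FC −0.14). *Slc4a7*, a sodium bicarbonate cotransporter, had 2421 ± 408 in control and a mean of 1823 in CNV d3 (log2FC = −0.39, adjusted p = 0.0497 by limma) and was called in only 4 of 24 alternative fits. The most abundant, *Clcn7*, a lysosomal chloride and proton exchanger, had a log2FC of 0.32 (adjusted p = 0.090), and *Clcn3* had −0.09 (adjusted p = 0.64). In all, 15 of the 52 listed genes in the table rose (28.8%, beside 8.29% of all genes and 22.0% of those with a mean of at least 1000) and 4 fell (7.69%, beside 4.57% and 15.1%), with a median log2FC of 0.28. Of these 19, *Prkcb*, *Vav2*, *Itgam*, *Taldo1* and *Gpx1* as increased and *Pik3cg* as decreased were called in each of 24 alternative fits.

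**Figure D4:**
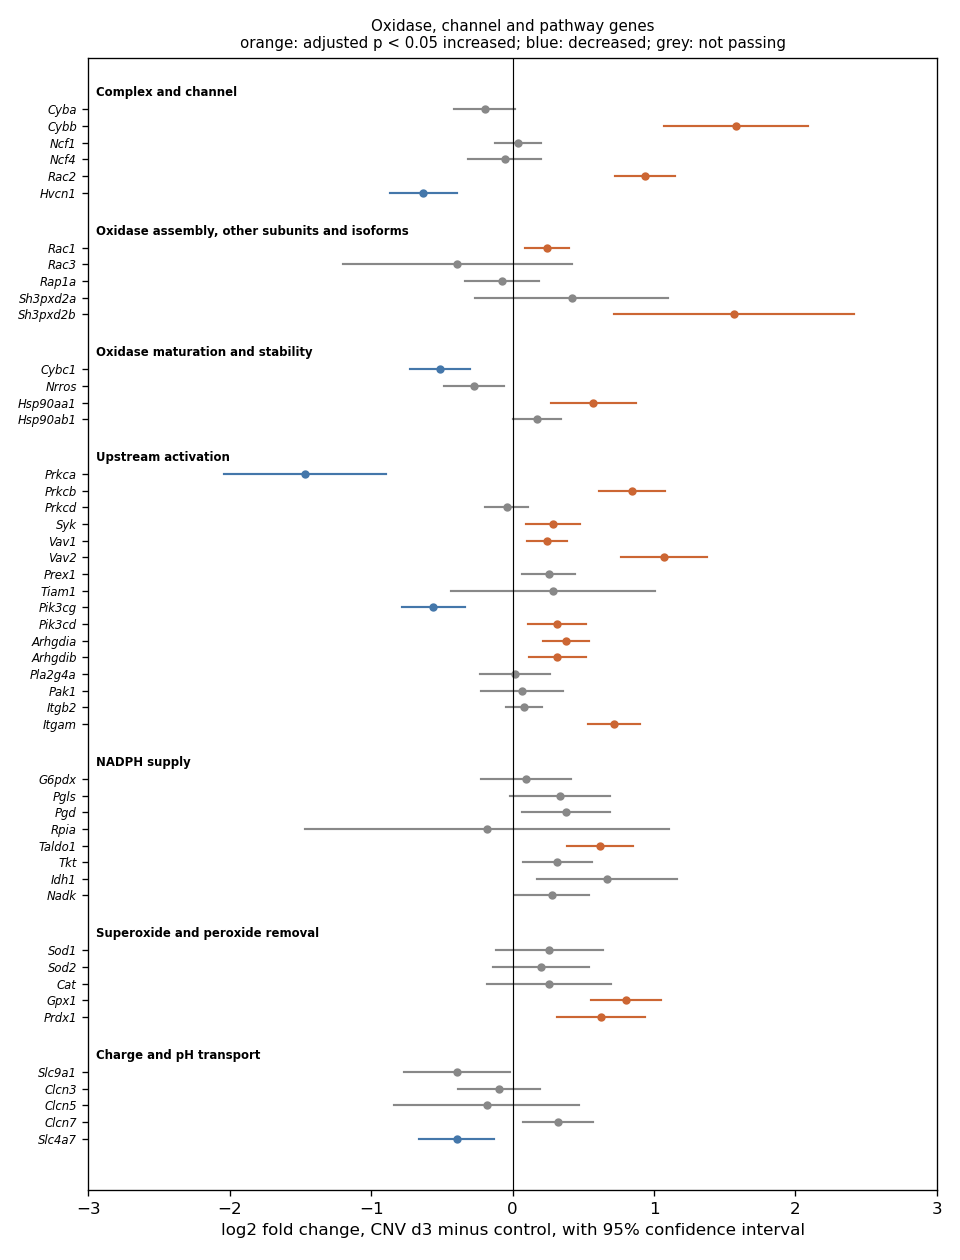
Log2 fold change (CNV d3 minus control, n = 6 each) with its 95% confidence interval from limma for the 6 genes and for the listed pathway genes with a mean of at least 100 normalized counts, grouped by list and coloured by whether they rose, fell or did not pass at an adjusted p under 0.05. *Cybb* and *Sh3pxd2b* lie farthest to the right and *Prkca* farthest to the left.

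To see which genes varied with each of the 6 from sample to sample, log2 values were centred within each group and correlated over the 12 samples among 9713 genes with a mean of at least 100 normalized counts. These points share libraries and depth, and the correlations are a description. *Rac2* was most like *Arpc1b* (r = 0.95), a subunit of the actin-nucleating ARP2/3 complex, followed by *Rpl23a* (0.90) and *Sh3bgrl3* (0.89). *Arpc1b* rose by nearly the same amount as *Rac2* (log2FC = 0.91, adjusted p = 1.5e-05 by limma). *Cybb* was most like *Cdkn2c* (r = 0.92), an inhibitor of cyclin-dependent kinases that rose (log2FC = 2.62, adjusted p = 0.00031), then *Aph1a* (0.92) and *Dnajc4* (0.90). *Hvcn1* was most like *Gm29488* (0.89), *Sipa1* (0.86) and the microglia marker *Tmem119* (0.85). *Cyba* was most like *Fkbp2* (0.93), *Atp6v0c* (0.93), a subunit of the vacuolar proton pump, and the pseudogene *Gm3511* (0.92). *Ncf1* was most like *Mtmr4* (0.88), *Lcmt1* (0.87) and *Tsnax* (0.84), and *Ncf4* was most like *Lsp1* (0.90), *Deptor* (0.90) and *Fam192a* (0.89). None of the 6 genes was among the 3 most alike of another, and between them r ran from −0.41 for *Rac2* and *Hvcn1* to 0.70 for *Cyba* and *Rac2*, with 0.66 for *Cyba* and *Cybb*.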

How the data were processed

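Retinal microglia of 6 CNV d3 and 6 control samples were measured by bulk RNA-seq (template-switching cDNA from picograms of RNA, tagmentation, single reads, no strand and no molecular identifiers). The 19 entries in the labels are 12 samples, since all control samples and CNV d3 replicate 4 are listed in 2 parts, which are merged in the table. The listing in 2 parts thus nearly follows the group, and its part in the differences was not tested. Groups and replicate numbers came from the labels, and the day and number of burns from the methods of the paper. The submitters' processing notes name FastQC 0.72, STAR 2.7.2b, featureCounts 1.6.4, R 3.5.3 and DESeq2 1.22.2. Reads were mapped with Gencode M25 (GRCm38.p6). The deposited signal of each gene and sample is the read count divided by the DESeq2 size factor of the sample, made by the authors, who removed genes with 0 reads throughout. The deposited table also holds the group means, log2 fold change and adjusted p-value of the authors, which were not used.

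All values (100% in 12 samples, tolerance 0.001) were whole multiples of the smallest value of the sample, so reads were recovered, and 1 read was worth 0.739 to 1.99 normalized counts. The design was fixed for either unit, and with normalized values the test was limma 3.58.1 in R 4.3.3 on log2(value + 1). It had a variance trend, no filter and Benjamini-Hochberg adjustment over 27299 genes. Folds of genes that were low or at 0 in 1 group are uncertain and differed between tools in either direction. The log2FC was 7.37 by limma and 5.33 by DESeq2 on recovered reads for *Mki67*, and 6.05 and 10.0 for *Cd209a*. On simulated data for this comparison (20486 genes, 200 of them changed by a log2 of 1), limma recovered 153 with 3 false calls. There edgeR recovered 161 with 10 false calls and DESeq2 184 with 84. The changed genes were drawn from abundant genes only, so recovery of low genes was not measured. Intervals are 95% from limma. Exact permutation tests on single genes and ratios were two-sided, and p-values of ratios were adjusted over 5 ratios, of which 4 are reported here. On recovered reads, edgeR 4.0.16 called 1952 increased and 1181 decreased genes and DESeq2 1.42.0 called 2493 and 2170, beside 2264 and 1247 with limma. Coordinates and exon lengths came from Gencode M21 on the same assembly, to which 27238 genes were matched. *Nox3*, *Nox4*, *Noxa1*, *Duox2*, *Duoxa2*, *Ly6g*, *Elane*, *Retnlg*, *Ms4a1*, *Pax5*, *Cd3e* and *Ncr1* were not analysed here.

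The genes and lists were chosen with earlier results of these data known. Named from each list are genes that passed the test and the 2 of highest mean, others having been chosen after their values were seen (*Prkcd*, *G6pdx*, *Sod2*, *Cat*, *Rap1a*, *S100a8*, *Sag*, *Rlbp1*, *Aqp4* and the genes with shared exons). For each of the 6 genes the 3 most alike by Pearson r are named. Alternatives were other tools, pseudocounts, scalings and filters, the replicate block, a covariate for Y-linked reads, thinning and leaving out each sample, and, added after the data were examined, CNV d3 replicates 1 to 3 alone and exon lengths without shared bases.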

Additional observations from a re-analysis of the deposited data

Results flagged for a closer look

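Of 20 sets of 6 samples (the 6 genes and 4 log2 ratios in each group), 1 held a sample far from the others. *Cyba* in control replicate 3, at 19974 normalized counts, stood above the next control sample by 0.71 of the whole range of the group, beside a critical value of 0.625. Chance alone singles out about 1 in 20 such sets. Without that sample, *Cyba* had a log2FC of −0.12 (adjusted p = 0.41 by limma). The same library had the highest *Cybb* (4529) of the control samples, the highest sum of the monocyte list (1343) and the highest sum of the border macrophage list (1734). It also had the highest photoreceptor sum of the control samples (5954, beside 596 to 1587 in the others) and the lowest dendritic cell sum (5.63).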

How the results depend on the processing

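*Cybb*, *Rac2* and *Hvcn1* passed limma or the other tool in each of 24 alternatives with the same direction, and *Cyba* and *Ncf1* in none. *Ncf4* passed in none and changed sign in 3, to 0.10 with the Y-linked covariate, 0.023 without CNV d3 replicate 5 (−0.12 to 0.023 over all fits without 1 sample) and 0.091 with CNV d3 replicates 1 to 3 alone, and the cause was not tested. With the Y-linked covariate, 1246 genes were increased and 671 decreased, of which 649 and 178 were DEG, and 7 list genes were increased. With CNV d3 replicates 1 to 3 alone, where fewer samples were used, the counts were 1022 and 540, DEG 524 and 166, and list genes 6 and 1. DESeq2 called 2170 decreased genes and 572 decreased DEG, beside 1247 and 293 with limma, and without a variance trend 8 list genes were increased, beside 15. Leaving out 1 sample gave 1737 to 2319 increased and 1022 to 1455 decreased genes, 829 to 1041 and 237 to 358 DEG, and 11 to 16 and 3 to 4 list genes.

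The log2 ratio of *Ncf4* to *Ncf1* was between −0.19 and −0.043 without 1 sample and 0.0053 with CNV d3 replicates 1 to 3 alone. Samples of the same replicate number did not deviate together (correlation −0.02 to 0.05, over 0.1 in 0 of 6 pairs, and 1 control sample correlated best with its own number). With a replicate block, 1885 genes were increased and 975 decreased, DEG 921 and 215, list genes 10 and 3, and the log2FC of *Cybb*, *Rac2* and *Hvcn1* was 1.58, 0.94 and −0.63. In the replicate block of the ratios, exact sign flips cannot go below p = 0.031, so the ratios of *Cyba* to *Cybb* (−1.78), *Rac2* to *Rac1* (0.70) and *Hvcn1* to *Cybb* (−2.21) had adjusted p = 0.052 each. Since the libraries had PCR copies and no molecular identifiers, counting error understates the technical error, and genes such as *Nox1* and *Ly6c2* lie near the worth of a few reads.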
